A study of Rattus norvegicus with 13 samples.

Results

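The miR-200 family was measured in whole kidneys of irradiated rats, with and without lisinopril. Members were taken by name from a table of small RNA counts: 5 guide strands (rno-miR-200a-3p, rno-miR-200b-3p, rno-miR-200c-3p, rno-miR-141-3p and rno-miR-429) and 2 strands from the opposite arm (rno-miR-200a-5p and rno-miR-200b-5p). The species prefix is left out from here on. These are 7 of the 460 mature rat miRNAs in the table, and all 7 were among the 419 that passed a filter on low counts. The choice went by name, but it was made with earlier results of these data known.

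The libraries came from 13 female rats of the inbred strain WAG/RijCmcr, 11 to 12 weeks old and about 155 g in weight. Control rats (n = 4) received 0 Gy. In the irradiated group (n = 4) the dose was 13 Gy, given as 320 kVp X-rays with a hind limb shielded and the rest of the body exposed, at 1.75 Gy per minute. The third group (n = 5) received the same irradiation and, from day 7 until the end, lisinopril in the drinking water at about 24 mg per square metre per day. Lisinopril inhibits angiotensin converting enzyme. Supportive care was saline at 40 ml per kg per day from day 3 to day 7 and the antibiotic enrofloxacin at 10 mg per kg per day until day 14 after irradiation. The sources used here do not say whether control rats received this care. All kidneys were taken on day 35, so that a single time point was measured. The labels describe randomized groups of rats and name no litter, batch or pairing, and with a library per rat the p-values measure the spread between these rats. Because RNA came from whole kidney, fewer cells of a type and less RNA per cell cannot be told apart.

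The miR-200 family is best known as a keeper of epithelial identity. Its guide strands repress the transcription factors ZEB1 and ZEB2, which themselves repress the adhesion gene E-cadherin and the miR-200 genes, so that family and factors repress each other. Loss of the family accompanies epithelial-mesenchymal transition in many epithelial cell types, and in the kidney the family is found mainly in tubular epithelium. The genes lie in a pair of clusters on different chromosomes, and the guide strands fall into a pair of seed classes that do not follow the clusters.

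The seeds and hairpins are shown first because the comparison of clusters, seed classes and arms rests on them. In the RefSeq annotation of the rat assembly GRCr8, which is not the rn4 build named in the submitters' processing notes and is used here for sequence and gene order only, Mir200b (chr5:171931495-171931589), Mir200a (chr5:171930717-171930805) and Mir429 (chr5:171929682-171929766) lie within 1908 bases on the minus strand. Mir200c (chr4:159209965-159210033) and Mir141 (chr4:159209525-159209618) lie within 509 bases on the minus strand. Hairpins are written 5′ to 3′, with the guide strand's seed (bases 2 to 8 of the mature strand, 7 letters) in capitals.
Mir200b: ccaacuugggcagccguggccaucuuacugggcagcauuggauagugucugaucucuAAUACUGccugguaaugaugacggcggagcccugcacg
Mir429: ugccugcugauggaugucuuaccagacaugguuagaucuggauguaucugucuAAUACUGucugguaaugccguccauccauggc
Mir200c: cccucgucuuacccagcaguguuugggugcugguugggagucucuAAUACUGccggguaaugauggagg
Mir200a: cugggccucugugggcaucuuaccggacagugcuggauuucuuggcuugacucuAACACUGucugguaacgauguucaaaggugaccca
Mir141: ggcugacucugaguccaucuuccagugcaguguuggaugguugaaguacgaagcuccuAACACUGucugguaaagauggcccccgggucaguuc

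miR-200b, miR-429 and miR-200c share the seed AAUACUG, whereas miR-200a and miR-141 share AACACUG. The seed classes differ by the substitution U4C, with positions counted from 1 at the 5′ end of the mature strand, miR-200c-3p first and miR-141-3p second. Each cluster therefore holds members of both classes. The mature sequences found in the RefSeq table were as follows, again with bases 2 to 8 in capitals. miR-200a-3p, miR-200b-3p and miR-429 appear above within their hairpins.
miR-200c-3p: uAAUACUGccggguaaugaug
miR-141-3p: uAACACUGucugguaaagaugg
miR-200a-5p: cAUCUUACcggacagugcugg
miR-200b-5p: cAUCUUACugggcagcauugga

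Members of different clusters are close in sequence. Counting from the 5′ end of the named mature strand, with its base first and the hairpin's base second, miR-200c-3p differed from the matching stretch of the Mir200b hairpin by 1 substitution, G11U. miR-141-3p differed from that of the Mir200a hairpin by 2, A17C and G22U. The 5p strands of miR-200a and miR-200b share bases 2 to 8. The assignment of reads with mismatches or several matches was not given in the sources used here, so the split of reads between miR-200b-3p and the scarcer miR-200c-3p, or between miR-200a-3p and miR-141-3p, is uncertain to that extent.

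Levels are given in CPM, the count per 1000000 rat mature miRNA counts of the library, with library sizes scaled by the trimmed mean of M-values (TMM). Totals ran from 1194175 counts in control library 2 to 11095939 in lisinopril library 4. Control library 2 stood apart in depth: 37 rat miRNAs were at 0 there against 0 to 3 elsewhere, and 29.0% of its counts over rat and other-species miRNAs fell on features named after other species, against 10.3% to 14.6%. The smallest count of any member was 43 (miR-200b-5p in that library). Irradiated library 4 stood apart from the other irradiated libraries for miR-141-3p. The tissue label was checked against 7 kidney miRNAs, among them miR-10a-5p, miR-192-5p and miR-204-5p. None of the 7 was at 0 in any library, and their summed level was 345614 to 737336 CPM. Most of that sum was miR-10a-5p, at 251361 to 562055 CPM, so the check of the label is a weak one.

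In control kidneys the most abundant member was miR-200b-3p (3783 ± 348 CPM, SD, n = 4), rank 30 of the 419 miRNAs tested. miR-429 (2680 ± 125 CPM) was at rank 34 and miR-200a-3p (2306 ± 122 CPM) at rank 38. These 3 guide strands of the chromosome 5 cluster lay close together, and miR-200b-3p exceeded both others in 13 of 13 libraries. miR-429 exceeded miR-200a-3p in 12 of 13, the exception being irradiated library 2. The chromosome 4 cluster was scarcer: miR-141-3p stood at 576 ± 122 CPM (rank 72) and miR-200c-3p at 130.3 ± 16.1 CPM (rank 133). miR-141-3p exceeded miR-200c-3p in 13 of 13 libraries.

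The opposite-arm strands were lower than their guides. miR-200a-5p stood at 131 ± 11.8 CPM in controls, level with miR-200c-3p, which exceeded it in 7 of 13 libraries, so the order of these neighbours is within their spread. miR-200b-5p stood at 39.6 ± 4.68 CPM (rank 196). The table also holds miR-141-5p, the opposite strand of Mir141, which lay lowest at 10.9 ± 2.61 CPM in controls, 11.7 ± 2.78 CPM in irradiated and 13.5 ± 2.13 CPM in lisinopril kidneys.

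**Figure D1:**
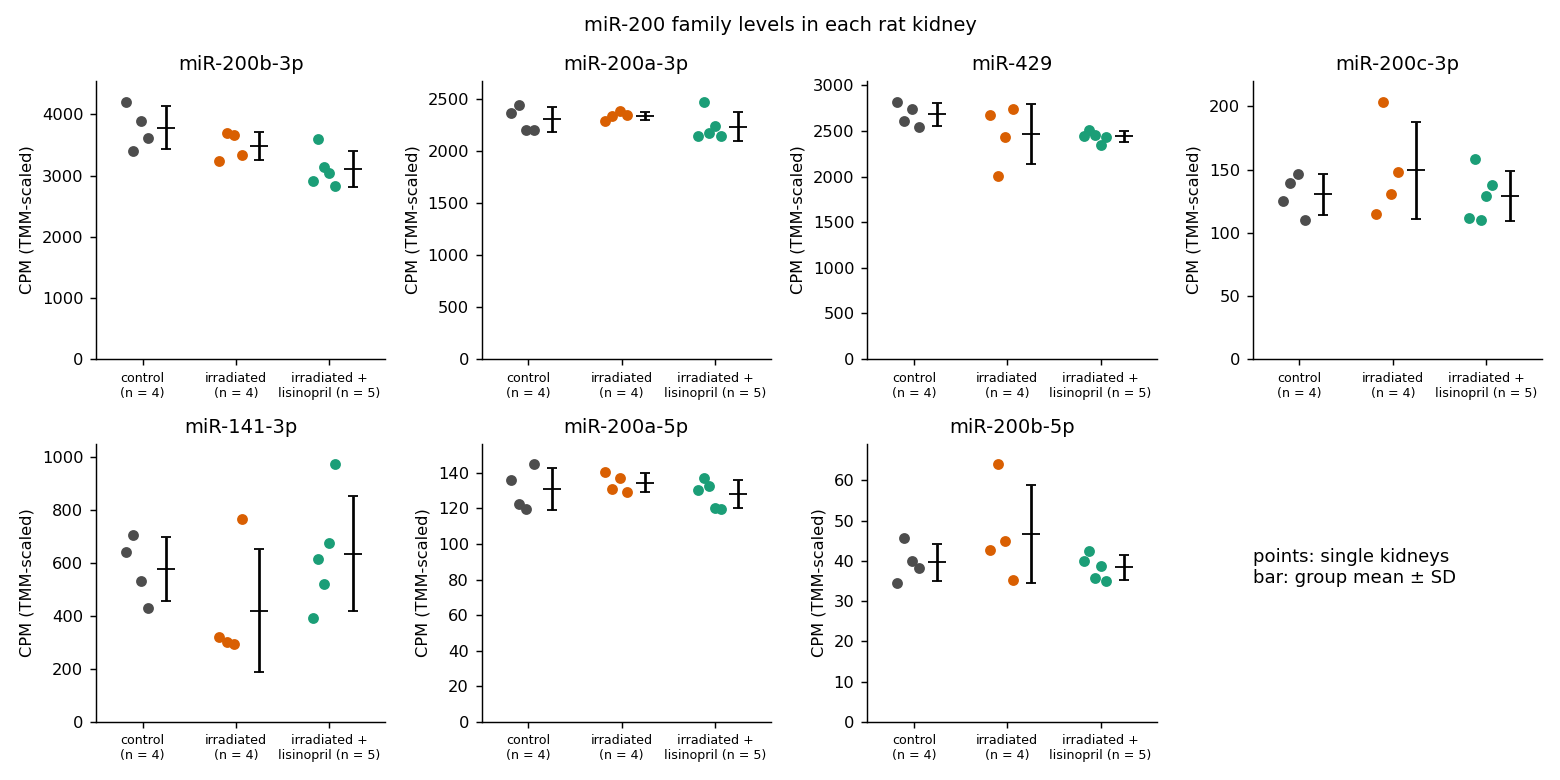
Level of each miR-200 family member in each of the 13 kidneys (y axes, TMM-scaled CPM, starting at 0; x axis, group; points are libraries). The miR-200a-3p points lie within a narrow band in every group, whereas irradiated library 4 lies at 767 CPM of miR-141-3p above the other 3 irradiated libraries at 293 to 320 CPM.

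Together the 5 guide strands made up 0.886% ± 0.135 of rat mature counts in control kidneys, 0.985% ± 0.0409 in irradiated and 0.836% ± 0.0928 in lisinopril kidneys. On the TMM-scaled CPM scale the same sum was 9474 ± 526, 8860 ± 350 and 8546 ± 496 CPM. The groups thus stood in a different order on each scale, with irradiated kidneys highest as a share of counts and controls highest after TMM scaling. Within the guides of control kidneys, miR-200b-3p took 39.9%, miR-429 28.3%, miR-200a-3p 24.4%, miR-141-3p 6.06% and miR-200c-3p 1.38%.

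By cluster, the miR-200c and miR-141 guides held 7.44% ± 1.25 of the family's guide counts in controls, 6.37% ± 2.34 in irradiated and 8.92% ± 2.57 in lisinopril kidneys. The chromosome 5 guides outnumbered them by between 6.68 times in lisinopril library 5 and 20.0 times in irradiated library 3. By seed, the AAUACUG guides summed to 6593, 6099 and 5675 CPM in the control, irradiated and lisinopril groups and the AACACUG guides to 2882, 2761 and 2871 CPM. The AACACUG share of the guides was 30.4% ± 2.32, 31.1% ± 1.55 and 33.6% ± 2.00 in that order. These sums over members are descriptions without a test.

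The members differed widely in how much rats of a group varied. For miR-200a-3p the values were 2365, 2449, 2208 and 2201 CPM in controls 1 to 4, 2289, 2343, 2383 and 2349 CPM in irradiated 1 to 4, and 2145, 2477, 2174, 2242 and 2144 CPM in lisinopril 1 to 5. No library stood far from the rest, and the groups overlapped. Its within-group SD of log2 CPM, 0.0705, was the smallest of the 419 miRNAs, whose median was 0.302. Its opposite strand miR-200a-5p, with all 13 libraries between 119.6 and 145 CPM, had the third smallest (0.0955). miR-429 (0.120) ranked 11 and miR-200b-3p (0.123) ranked 12 from the smallest.

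The remaining members were not so even. miR-200b-5p had a within-group SD of 0.228 (rank 116) and miR-200c-3p 0.258 (rank 160), whereas miR-141-3p had 0.507 (rank 351). Among the 151 miRNAs with at least 100 CPM on average, miR-141-3p ranked 145 from the smallest. The scaling bears on these ranks: with library totals alone, miR-200a-3p ranked 15, miR-429 30, miR-200a-5p 39, miR-200b-3p 90 and miR-141-3p 288. Leaving out each library in turn kept miR-200a-3p at rank 1 or 2 and miR-141-3p between ranks 287 and 380, the lowest of these without irradiated library 4. Without irradiated library 2, which held the lowest miR-429 and the highest miR-200b-5p, their SDs were 0.0617 (rank 1) and 0.150 (rank 52).

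**Figure D2:**
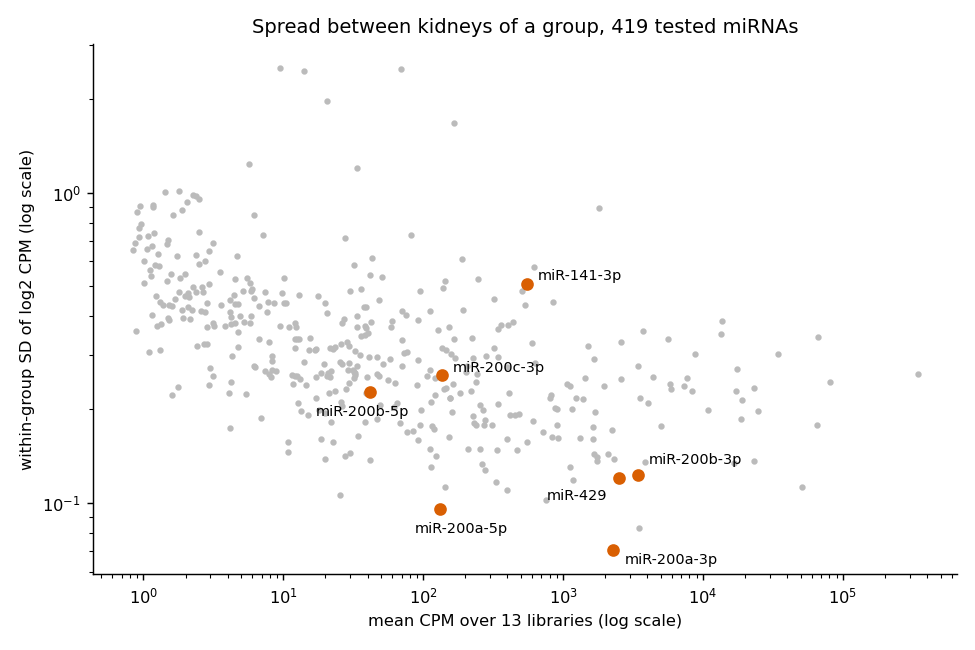
Within-group SD of log2 CPM (y axis, log scale) against mean CPM over the 13 libraries (x axis, log scale) for the 419 miRNAs tested; grey points are other miRNAs and labelled points are members of the family. miR-200a-3p lies lowest at 0.0705 and miR-141-3p at 0.507, above most miRNAs of a similar level.

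The first comparison asks which kidney miRNAs differed 35 days after irradiation. None of the 7 members passed an adjusted p of 0.05 in the quasi-likelihood test of edgeR, adjusted by Benjamini-Hochberg over 419 miRNAs, against 1.67% of all miRNAs tested (7 miRNAs, with 0.477% of those tested higher and 1.19% lower). No member had an unadjusted p under 0.05, against 22.2% of all tested, and none had groups without overlap, against 7.16%. Of the members, 4 had a positive and 3 a negative log2 fold change, where 51.8% and 48.2% of all miRNAs did, and their median was 0.02, as was that of all miRNAs tested.

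miR-141-3p had the widest difference of the members. Its level was 642, 704, 530 and 428 CPM in controls 1 to 4 and 320, 299, 293 and 767 CPM in irradiated 1 to 4. Irradiated libraries 1 to 3 lay below every control and irradiated library 4 above every control. Means were 576 ± 122 and 419.9 ± 231 CPM (SD, n = 4 each), and edgeR's log2 fold change was −0.45 with a standard error of 0.317 and a 95% interval from −1.13 to 0.22 (adjusted p = 0.394). Without irradiated library 4 it was −0.90 (edgeR adjusted p = 0.0318), which passes the threshold, so this library decides the call. In that fit 35 miRNAs were called higher and 25 lower.

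Its cluster partner miR-200c-3p did not follow the same order. It was at 125, 139, 146 and 110 CPM in controls and 115, 204, 130 and 148 CPM in irradiated kidneys. The groups overlapped, with irradiated library 2 highest, and the log2 fold change was 0.20 with a standard error of 0.181 (edgeR adjusted p = 0.517). The 95% interval ran from −0.19 to 0.59.

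In the chromosome 5 cluster the differences were smaller and the intervals narrower. miR-200b-3p stood at 4208, 3408, 3897 and 3616 CPM in controls and 3246, 3699, 3665 and 3332 CPM in irradiated kidneys. These ranges overlapped, and the log2 fold change was −0.12 (95% interval −0.35 to 0.11, edgeR adjusted p = 0.517). miR-429 stood at 2821, 2608, 2744 and 2546 CPM in controls and 2677, 2005, 2438 and 2736 CPM in irradiated kidneys. Irradiated library 2 was its lowest of all, the groups overlapped, and the log2 fold change was −0.12 (−0.35 to 0.10, edgeR adjusted p = 0.498). For miR-200a-3p it was 0.02 (−0.17 to 0.22, edgeR adjusted p = 0.911).

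The opposite-arm strands also overlapped between these groups. miR-200a-5p averaged 131 ± 11.8 and 135 ± 5.31 CPM, with a log2 fold change of 0.04 (95% interval −0.20 to 0.28, edgeR adjusted p = 0.852). miR-200b-5p averaged 39.6 ± 4.68 and 46.7 ± 12.2 CPM, with irradiated library 2 highest at 64.0 CPM. Its log2 fold change was 0.25 (−0.12 to 0.63, edgeR adjusted p = 0.386). The interval of miR-200a-3p thus reached no further than 0.22 from 0 on the log2 scale, whereas that of miR-141-3p reached −1.13. These limits hold on the TMM scale. With library totals the median of all miRNAs moved to 0.26, miR-200a-3p to 0.28 and miR-141-3p to −0.22.

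**Figure D3:**
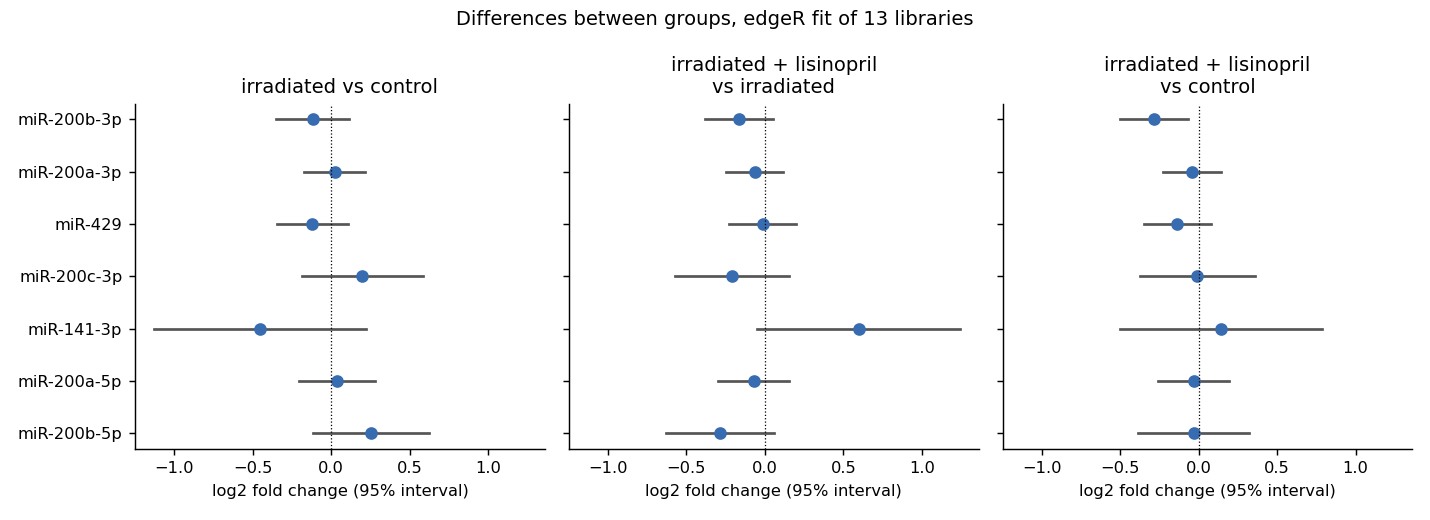
Log2 fold changes of the 7 members with 95% intervals from the edgeR fit of 13 libraries (x axes; members on the y axis) for the 3 comparisons, with a dotted line at 0. Intervals are narrow for miR-200a-3p and widest for miR-141-3p, and the only one of the 3 comparisons' intervals that leaves out 0 is that of miR-200b-3p in lisinopril against control kidneys, from −0.50 to −0.07.

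The second comparison asks which miRNAs differed between irradiated rats with and without lisinopril. Again none of the 7 members passed, where 0% of all miRNAs did so with edgeR (63 miRNAs, 15%, had an unadjusted p under 0.05, and DESeq2 called 9). No member had an unadjusted p under 0.05 and none had groups without overlap, against 4.3% of all tested. The log2 fold change was positive for 1 member and negative for 6, where it was so for 46.5% and 53.5% of all miRNAs, with a median of −0.07 beside −0.02 over all miRNAs.

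The positive one was miR-141-3p, which stood at 393, 616, 519, 676 and 972 CPM in lisinopril kidneys 1 to 5. All 5 lay above irradiated libraries 1 to 3, and irradiated library 4 lay above 4 of them. The log2 fold change was 0.60 with a standard error of 0.303 (95% interval −0.05 to 1.24, edgeR adjusted p = 0.353). Without irradiated library 4 it was 1.04 (edgeR adjusted p = 0.0321), where 20 miRNAs were called higher and 27 lower. The irradiated rats take part in both this and the first comparison, so the opposite signs share these 4 libraries.

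The other guides had negative values with intervals that included 0. miR-200c-3p stood at 112, 158, 110, 129 and 138 CPM in lisinopril kidneys, inside the irradiated range apart from libraries 1 and 3, and the log2 fold change was −0.21 (95% interval −0.57 to 0.15, edgeR adjusted p = 0.534). miR-200b-3p stood at 2911, 3594, 3138, 3049 and 2832 CPM. Of these, 4 lay below every irradiated library, and the log2 fold change was −0.17 (−0.38 to 0.05, edgeR adjusted p = 0.417). Values for miR-200a-3p and miR-429 were −0.07 (−0.25 to 0.12, adjusted p = 0.716) and −0.01 (−0.23 to 0.20, adjusted p = 0.962) in edgeR.

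Among the opposite-arm strands, miR-200b-5p averaged 38.4 ± 3.12 CPM with lisinopril (n = 5), with a log2 fold change of −0.29 (95% interval −0.63 to 0.06, edgeR adjusted p = 0.407). miR-200a-5p averaged 128 ± 7.92 CPM, with a log2 fold change of −0.07 (edgeR adjusted p = 0.751).

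The third comparison sets irradiated rats on lisinopril beside controls, so radiation and drug differ together. None of the 7 members passed, against 6.21% of all miRNAs (26, of which 3, or 0.716% of those tested, were higher and 23, or 5.49%, lower). Before adjustment 1 member had a p under 0.05, against 22.7% of all tested. Groups did not overlap for 1 member, against 13.4% of all tested in either direction and 7.4% lower. The log2 fold change was positive for 1 member and negative for 6, where it was so for 57% and 43% of all miRNAs, with a median of −0.03 beside 0.05 over all miRNAs.

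miR-200b-3p had the smallest p of the members here. In lisinopril kidneys 4 of 5 values lay below every control, and library 2, at 3594 CPM, lay above the lowest control at 3408 CPM. Means were 3783 ± 348 CPM (n = 4) and 3105 ± 298 CPM (n = 5), and the log2 fold change was −0.29 with a standard error of 0.102 and a 95% interval from −0.50 to −0.07. In edgeR its unadjusted p was 0.0136 and its adjusted p 0.105. Over 20 alternative settings the log2 fold change stayed negative, from −0.35 to −0.22, and the adjusted p ranged from 0.0527 to 0.475, so that none passed.

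miR-429 was the member without overlap. It stood at 2447, 2514, 2458, 2349 and 2437 CPM in lisinopril kidneys, all below the lowest control at 2546 CPM. The difference was small, −0.13 on the log2 scale (95% interval −0.35 to 0.08, edgeR adjusted p = 0.498), and with library totals the groups overlapped. The lisinopril values were the closest together of the 3 groups, 2441 ± 59.7 CPM.

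The intervals of the remaining members included 0 in this comparison. miR-141-3p, at 635 ± 216 CPM against 576 ± 122 CPM, had a log2 fold change of 0.14 (95% interval −0.50 to 0.78, edgeR adjusted p = 0.837). miR-200a-3p was at −0.04 (edgeR adjusted p = 0.837) and miR-200c-3p at −0.01 (edgeR adjusted p = 0.989). miR-200a-5p and miR-200b-5p were each at −0.03 (edgeR adjusted p = 0.894 and 0.955). The signs of these 4 turned under library totals, whereas that of miR-141-3p did not.

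Ratios of members inside a library do not depend on how libraries are scaled, and 7 pairs were compared over the 3 comparisons with two-sided exact permutation tests. None of the 21 tests had an adjusted p under 0.05, and 1 had an unadjusted p under 0.05. The smallest p that 4 against 4 libraries allow is 0.0286, and 0.0159 for 4 against 5.

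The arms of Mir200a kept a steady ratio. miR-200a-3p exceeded miR-200a-5p by 15.2 to 20.0 times over the 13 libraries, with geometric means of 17.7, 17.4 and 17.5 in control, irradiated and lisinopril kidneys. Over 120 hairpins with both arms tested, the within-group SD of its log2 arm ratio, 0.112, was the smallest, where the median was 0.392. The size of the ratio itself was ordinary, since 50% of the pairs were more unequal. For Mir200b the ratio was larger and more spread than for Mir200a, from 57.8 in irradiated library 2 to 122 in control library 1. Its SD, 0.239, was still low among the 120 hairpins, since 11.7% of the pairs had a smaller one, and 26.7% were more unequal. The geometric means of the Mir200b ratio were 95.7, 76.3 and 80.8. The difference between irradiated and control kidneys, −0.33 on the log2 scale, had an exact permutation p of 0.2 (adjusted 0.350).

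Inside the chromosome 5 cluster, miR-200a-3p relative to miR-200b-3p had geometric means of 0.611, 0.673 and 0.722 in control, irradiated and lisinopril kidneys. The lisinopril values ran from 0.689 to 0.757 and 3 of 4 controls from 0.562 to 0.609, whereas control library 2 was at 0.718. The difference of lisinopril from control was 0.24 on the log2 scale (exact permutation p = 0.0476, adjusted 0.327). Without that control it was 0.32 (exact permutation, adjusted p = 0.259). miR-429 relative to miR-200b-3p had geometric means of 0.710, 0.703 and 0.789, with an exact permutation p of 0.0635 for lisinopril against control (adjusted 0.327). Both ratios have miR-200b-3p as the denominator, so they share its values.

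Inside the chromosome 4 cluster the ratio was the least steady of the 7. miR-141-3p exceeded miR-200c-3p by 5.13, 5.05, 3.62 and 3.89 times in controls, by 2.78, 1.47, 2.25 and 5.19 times in irradiated kidneys, and by 3.52, 3.90, 4.72, 5.25 and 7.06 times in lisinopril kidneys. Irradiated libraries 1 to 3 were the lowest of all 13, and irradiated library 4 was above every control. The log2 difference of irradiated from control kidneys was −0.73 (exact permutation p = 0.171, adjusted 0.327) and that of lisinopril from irradiated 0.85 (exact permutation p = 0.0794, adjusted 0.327).

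**Figure D4:**
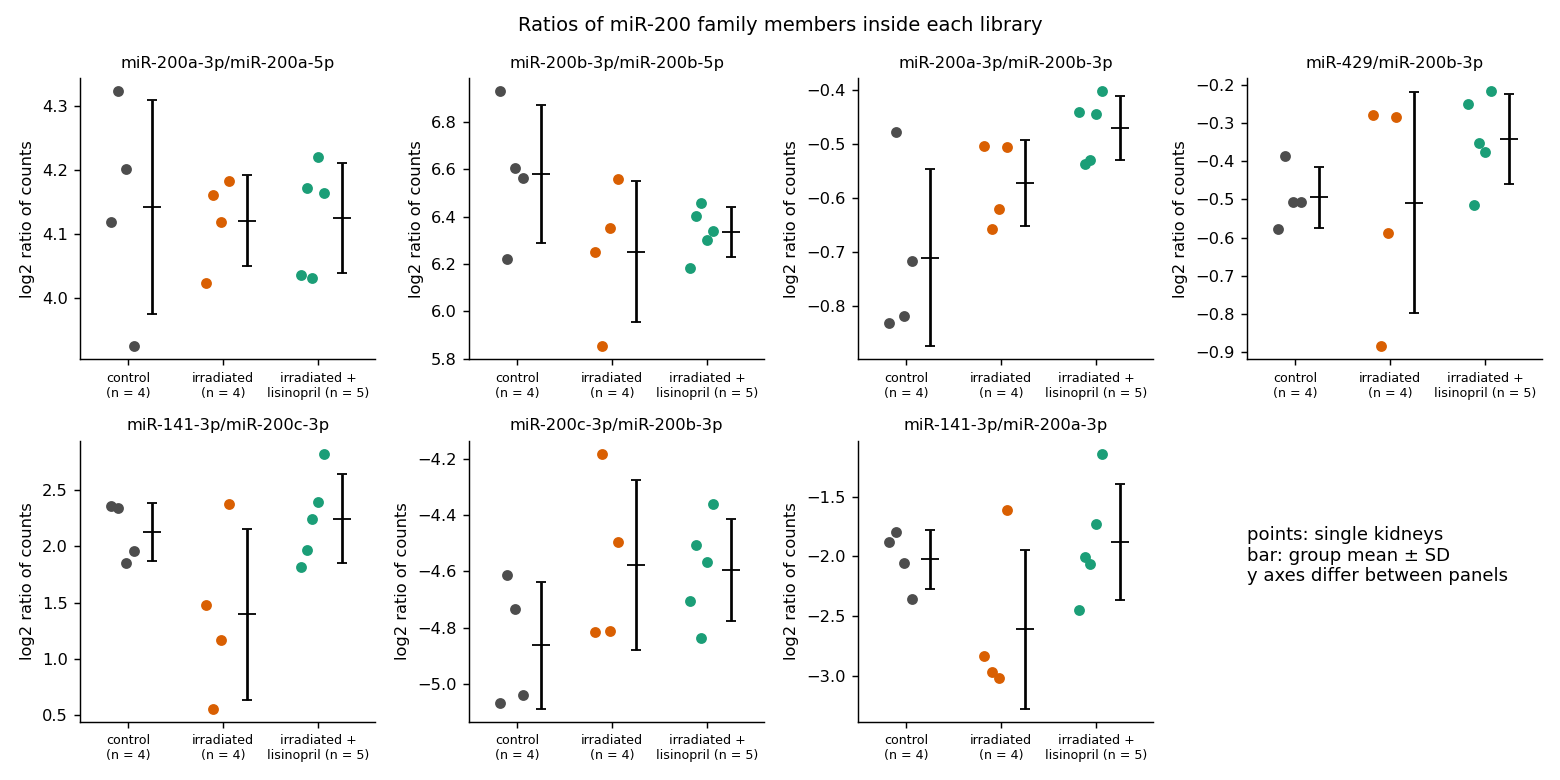
Log2 ratio of the counts of 2 members inside each library (y axes), by group (x axis), for the pairs tested; points are libraries. The miR-200a arm ratio stays level across the groups, and the ratio of miR-141-3p to miR-200c-3p is lowest in irradiated libraries 1 to 3, at 1.47 to 2.78 before the log.

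Across clusters, pairs with the same seed were set side by side. miR-141-3p relative to miR-200a-3p had geometric means of 0.246, 0.164 and 0.272, with irradiated libraries 1 to 3 at 0.123 to 0.140 and irradiated library 4 at 0.326. The log2 difference was −0.59 for irradiated against control kidneys (exact permutation p = 0.143, adjusted 0.327) and 0.73 for lisinopril against irradiated (exact permutation p = 0.111, adjusted 0.327). miR-200c-3p relative to miR-200b-3p, the pair with the substitution G11U in the stretch compared, ran from 0.0298 to 0.0551 over all libraries, with geometric means of 0.0343, 0.0419 and 0.0414. Its exact permutation p was 0.171 for irradiated and 0.0952 for lisinopril against control kidneys (each adjusted 0.327).

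The pattern of miR-141-3p over the 13 libraries was compared with the 418 other miRNAs tested by the correlation of log2 CPM. The most similar outside the family was miR-27a-3p (Pearson r = 0.92, permutation p = 2e-05, adjusted 0.00418, Spearman rho = 0.93, permutation p = 2e-05). miR-27a-3p stood at 1133, 1185, 1134 and 1486 CPM in irradiated libraries 1 to 4 and reached 1587 CPM in lisinopril library 5, where miR-141-3p was highest too. Next came miR-142-5p, a strand of the leukocyte-enriched miR-142 hairpin (r = 0.91, permutation p = 3e-05, adjusted 0.00418, rho = 0.90, permutation p = 1e-04). The third was miR-145-3p, from a hairpin enriched in smooth muscle (r = 0.89, permutation p = 5e-05, adjusted 0.00522, rho = 0.84, permutation p = 0.00075). Without the 2 libraries farthest from the median of miR-141-3p, r was 0.88, 0.87 and 0.86, and for deviations from group means 0.93, 0.94 and 0.86. Leaving out each library in turn gave 0.867 at the lowest, for miR-145-3p. The other and more abundant strand of that hairpin, miR-145-5p, ran differently. It stood at 456, 656, 456 and 301 CPM in irradiated libraries 1 to 4. In lisinopril libraries 1 to 5 it was at 580, 459, 370, 375 and 335 CPM. In both of these groups miR-145-5p was lowest where miR-141-3p was highest. Controls differed, with miR-145-5p at 366, 471, 535 and 298 CPM in libraries 1 to 4. Its lowest control value was in library 4, where miR-141-3p was lowest too.

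Such likeness was not rare for miR-141-3p: 65 of the 418 miRNAs (15.6%) correlated with it at an adjusted permutation p under 0.05, 37 positively and 28 negatively. The miRNAs share the libraries, their depth and their scaling. With the TMM factor of the library, which ran from 0.787 to 1.19, miR-141-3p had r = −0.71 (permutation p = 0.00717, adjusted 0.100 over the 7 members and 2 library measures, rho = −0.79, permutation p = 0.00241). This did not pass adjustment, and CPM is itself divided by that factor, so that level and factor are not independent. For the other members, divided by the same factors, r ran from −0.32 for miR-429 to 0.48 for miR-200b-5p. With the 2 most outlying libraries left out, r was 0.83 for miR-200b-5p and −0.66 for miR-141-3p, so miR-141-3p was not alone in following the factor. The part of scaling in the likeness was not tested. With its own cluster partner miR-200c-3p, miR-141-3p had r = 0.02 (permutation p = 0.944, adjusted 0.952, rho = 0.23, permutation p = 0.448). Of the other members, the largest correlations with miR-141-3p were negative and did not pass adjustment: miR-200b-5p (r = −0.61, permutation p = 0.0172, adjusted 0.0904, rho = −0.58, permutation p = 0.0424) and miR-200a-5p (r = −0.58, permutation p = 0.0411, adjusted 0.133, rho = −0.60, permutation p = 0.0321). Without the 2 libraries farthest from the median of miR-141-3p these were −0.57 and −0.43.

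**Figure D5:**
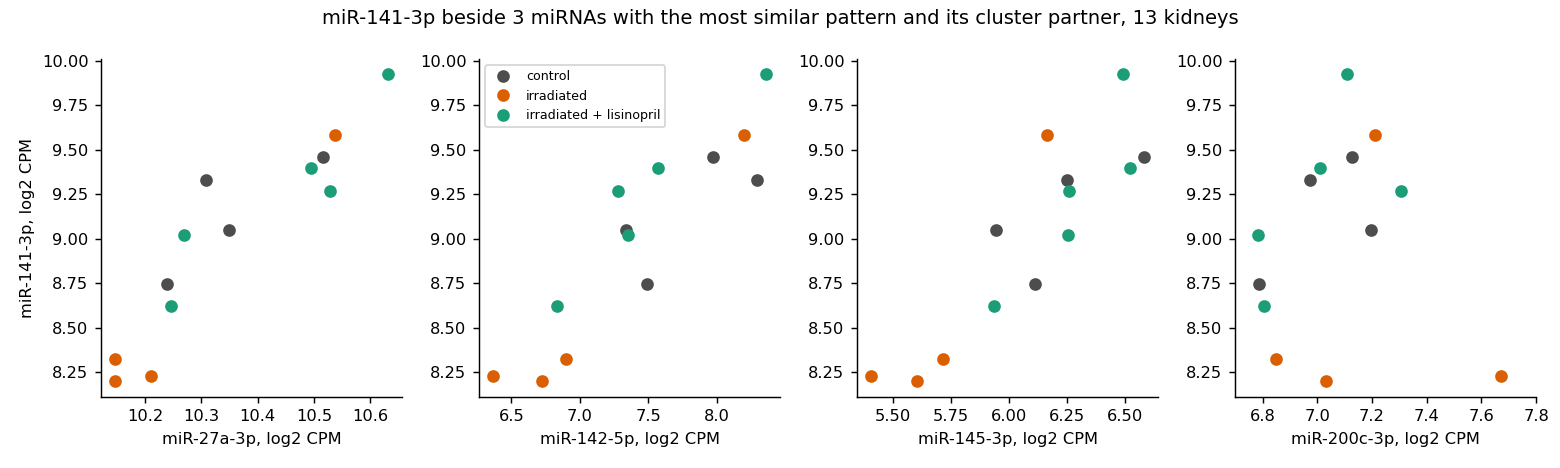
Log2 CPM of miR-141-3p (y axis) against log2 CPM of miR-27a-3p, miR-142-5p, miR-145-3p and its cluster partner miR-200c-3p (x axes) in the 13 kidneys, with points coloured by group. The first 3 panels rise together, with r of 0.92, 0.91 and 0.89, and the panel of miR-200c-3p shows r = 0.02.

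For miR-200b-3p, 1 of 418 miRNAs passed the same threshold, negatively. The most similar outside the family were miR-10a-3p (r = 0.79, permutation p = 0.00122, adjusted 0.0719, rho = 0.74, permutation p = 0.00486), miR-411-3p (r = 0.76, permutation p = 0.00253, adjusted 0.0881, rho = 0.69, permutation p = 0.0121) and miR-3068-5p (r = 0.73, permutation p = 0.00438, adjusted 0.122, rho = 0.64, permutation p = 0.0215). Without the 2 libraries farthest from its median, r was 0.68, 0.65 and 0.64, and for deviations from group means 0.47, 0.63 and 0.80, so that the likeness to miR-10a-3p was weaker within groups. Of its own cluster, miR-200a-3p correlated with miR-200b-3p at r = 0.54 (permutation p = 0.0563, adjusted 0.358, rho = 0.54, permutation p = 0.0592) and miR-429 at 0.25 (permutation p = 0.419, adjusted 0.767, rho = 0.42, permutation p = 0.150). Of the miRNAs named outside the family, miR-411-3p was scarce, at 2.13 to 6.14 CPM. In control library 2 it stood at 4.25 CPM, where 3 counts are 3.19 CPM. miR-3068-5p ran from 7.52 to 18.2 CPM.

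Other miRNAs of epithelia and of the mesenchymal programme were read from the same fit. Of 22 epithelial and nephron miRNAs tested, 0 were higher and 1 lower in irradiated than control kidneys, 0 passed between the irradiated groups, and 0 were higher and 3 lower in lisinopril than control kidneys. Over all 419 miRNAs tested, 0.477% were higher and 1.19% lower in the first of these comparisons, and 0% passed in the second. In the third, 0.716% were higher and 5.49% lower. The list's median log2 fold changes were −0.12, 0.02 and −0.08, beside 0.02, −0.02 and 0.05 over all miRNAs. Those that passed belong to the miR-183/96/182 cluster, known from sensory epithelia. miR-183-5p fell from 478 ± 44.6 CPM in controls to 322 ± 7.63 CPM in irradiated and 226 ± 21.5 CPM in lisinopril kidneys, with log2 fold changes against control of −0.57 (edgeR adjusted p = 0.0216) and −1.08 (edgeR adjusted p = 8.64e-06). miR-182 (−0.90, edgeR adjusted p = 0.00183) and miR-96-5p (−0.90, edgeR adjusted p = 0.00695) were lower with lisinopril than in controls.

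Of 17 miRNAs linked to TGF-beta and mesenchymal transition, 1 was higher in irradiated than control kidneys, 0 passed between the irradiated groups and 1 was higher in lisinopril than control kidneys. In both cases it was miR-34a-5p, a target of p53, at 52.4 ± 2.00, 306 ± 38.5 and 314 ± 46.4 CPM in control, irradiated and lisinopril kidneys. Over all miRNAs tested, 0.477% were higher in irradiated and 0.716% higher in lisinopril than control kidneys. The list's median log2 fold changes were −0.012, −0.02 and 0.03.

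Markers of other cells were read in the same way, where 1.67%, 0% and 6.21% of all miRNAs tested were called in the 3 comparisons. The 7 leukocyte miRNAs had median log2 fold changes of −0.57, −0.02 and −0.25 with none called. Their sum ran from 1912 to 2362 CPM in controls, 1717 to 2042 CPM in irradiated and 1374 to 1854 CPM in lisinopril kidneys, and irradiated library 4 had the lowest irradiated value, 1717 CPM. Its miR-142-5p, at 293 CPM, was above the 82.1 to 119 CPM of the other irradiated libraries. The list was split in that library. Its miR-142-3p (56.9 CPM), miR-223-3p (36.7 CPM) and miR-155-5p (32.2 CPM) were also the highest of the irradiated group. Its miR-150-5p (441 CPM) and miR-342-3p (79.7 CPM) were the lowest of that group, and miR-146a-5p (778 CPM) lay inside the range. The 6 smooth muscle and fibroblast miRNAs had medians of 0.0074, 0.24 and 0.24 with none called, and irradiated library 4 (36962 CPM) lay inside the irradiated range of 33097 to 38552 CPM. Most of that sum was miR-143-3p, at 33561 CPM in irradiated library 4, and the rest of the list was split there. miR-145-3p (71.4 CPM), miR-199a-3p (2564 CPM) and miR-199a-5p (400 CPM) were the highest of the irradiated group. miR-145-5p (301 CPM) and miR-214-3p (64.5 CPM) were the lowest of that group. Of 4 endothelial and 4 erythroid miRNAs none was called. Irradiated library 4 had the highest endothelial sum of its group, 14599 CPM against 9335 CPM at the lowest, and an erythroid sum of 1861 CPM in a range from 812 to 4227 CPM. Most of its endothelial sum was miR-126a-5p (10024 CPM) and miR-126a-3p (4019 CPM), each the highest of the group. Its miR-222-3p (225 CPM) was the lowest of the group, and miR-221-3p (330 CPM) lay inside the range. Of 3 muscle miRNAs tested, 1 was called, miR-499-5p, lower in lisinopril than control kidneys (−0.85, edgeR adjusted p = 0.0256). No tested marker was at 0 in any library. The part of these cell types in the values of miR-141-3p was not tested.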

How the data were processed

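Small RNA libraries (TruSeq small RNA kit) were made from total RNA of the kidneys of 13 rats, per the labels' protocols. The submitters' processing notes name Bowtie 1.1.1, Trim Galore 0.2.5 and the genome build rn4. The deposited table holds whole-number counts per feature that were not normalized, as far as the values show. Counting and the handling of multiply mapping reads were not given in the sources used here, and reads carry no molecular identifiers in the protocol.

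Of 1121 features, the 460 mature rat miRNAs entered edgeR 4.0.16 in R 4.3.3. The filter filterByExpr kept 419 and removed 41. TMM factors (0.787 to 1.19) and a quasi-likelihood fit with a mean per group were computed over all 13 libraries. The biological coefficient of variation was 0.247, and the Benjamini-Hochberg adjustment ran over 419 miRNAs with a threshold of 0.05. Log2 CPM adds a prior count of 2. Within-library ratios used raw counts and exact permutation tests (scipy 1.17.1), adjusted over 21 tests. Correlations used 100000 permutations. The fit was tested on simulated counts. Groups overlap in CPM unless every library of a group lies above every library of the other.

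The members, the lists, the pairs and the alternatives were chosen with earlier results of these data known. The rule for named miRNAs took all 7 members, other arms of the 5 hairpins as levels only, from each list the called miRNAs or otherwise the 2 with the smallest p, and the 3 miRNAs most correlated with miR-200b-3p and with miR-141-3p. Values given for single libraries follow the numbering of libraries within groups in accession order. Names in the lists without a match (miR-126b, miR-133b-3p, miR-206-3p, miR-208a-3p and miR-208b-3p) were not analysed here. The alternatives were other scalings, filters, tests, features and sample sets, and leaving out each library. Rat plus other-species miRNAs, and leaving control library 2 out of the comparison of the irradiated groups, were added after seeing the data.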

Additional observations from a re-analysis of the deposited data

Results flagged for a closer look

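In irradiated library 4 miR-141-3p stood at 767 CPM, far above the other 3 irradiated libraries at 293 to 320 CPM. The ratio of miR-141-3p to miR-200a-3p was 0.326 in the same library against 0.123 to 0.140 in the others. Both values share the count of miR-141-3p. Of 45 groups of values examined 2 held such a library, and about 1 in 20 would do so by chance.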

How the results depend on the processing

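No member was called under any alternative apart from miR-141-3p without irradiated library 4, at −0.90 against control and 1.04 for lisinopril against irradiated. Its ranges without each library in turn were −0.90 to −0.31 and 0.39 to 1.04. Values that changed sign were small and the cause was not tested. No paired analysis was possible because the labels carry no replicate numbers or pairing. Depth limited control library 2 most, where 3 counts are 3.19 CPM against 0.289 to 0.561 CPM elsewhere.

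With library totals, irradiated against control turned for miR-200b-3p (0.13) and miR-429 (0.12), and lisinopril against control for miR-200a-3p (0.030), miR-200c-3p (0.048), miR-200a-5p (0.035) and miR-200b-5p (0.030). With all features in a fit the latter were 0.0099, 0.039, 0.021 and 0.013, and with rat and other-species miRNAs 0.028, 0.058, 0.036 and 0.033. For lisinopril against irradiated kidneys miR-429 turned with all features (0.017), with rat and other-species miRNAs (0.023) and without the most abundant miRNA in library sizes (0.0099). As a difference of medians, the ratio miR-429/miR-200b-3p was 0.070 for irradiated against control, miR-200c-3p/miR-200b-3p 0.087 for lisinopril against irradiated, and miR-200a-3p/miR-200a-5p 0.0030 and miR-141-3p/miR-200a-3p −0.038 for lisinopril against control.

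Leaving out each library in turn, log2 fold changes for irradiated against control ranged from −0.025 to 0.063 for miR-200a-3p and −0.014 to 0.072 for miR-200a-5p. For lisinopril against irradiated miR-429 ranged from −0.11 to 0.024. For lisinopril against control miR-200c-3p ranged from −0.10 to 0.068, miR-200b-5p from −0.094 to 0.030, miR-200a-5p from −0.065 to 0.021 and miR-141-3p from −0.064 to 0.27. The miR-200a arm ratio ranged from −0.094 to 0.039 for irradiated against control, −0.029 to 0.027 for lisinopril against irradiated and −0.090 to 0.043 for lisinopril against control. The ratio miR-429/miR-200b-3p ranged from −0.092 to 0.11 for irradiated against control. For lisinopril against irradiated miR-200b-3p/miR-200b-5p ranged from −0.050 to 0.19 and miR-200c-3p/miR-200b-3p from −0.098 to 0.11. For lisinopril against control miR-141-3p/miR-200c-3p ranged from −0.025 to 0.23 and miR-141-3p/miR-200a-3p from −0.038 to 0.29.

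Counts of calls over all miRNAs moved more. For irradiated against control (2 higher, 5 lower) they were 11 and 13 with DESeq2, 1 and 0 with all features, with rat and other-species miRNAs and in a fit of the 2 groups, and 0 lower with library totals. For lisinopril against irradiated (0 and 0) they were 4 and 5 with DESeq2, and 2 lower with RLE size factors, library totals, a mean of at least 10 CPM and limma-voom. For lisinopril against control (3 and 23) higher calls were 6 without a filter and with DESeq2, 7 with all features, 17 in a fit of the 2 groups and 10 with rat and other-species miRNAs, and lower calls were 15 with at least 10 CPM and 37 with rat and other-species miRNAs. Without each library in turn they ranged from 1 to 35 higher and 0 to 25 lower, 0 to 20 and 0 to 27, and 2 to 5 and 11 to 27. The most calls in the first 2 comparisons came without irradiated library 4, and leaving out control library 4 gave 1 call in the first and 13 in the third.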
